A study of Homo sapiens with 2 samples.

Results

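The S100 family of calcium-binding proteins was followed in AGS cells, an epithelial line from a human gastric adenocarcinoma, with and without silencing of galectin-3. The members were taken as every probe set that the platform annotation gives to S100A2, S100A4, S100A6, S100A8, S100A10, S100A11, S100A13, S100A14, S100A16 or S100P. They are 10 genes with 14 probe sets, of 19775 named genes and 54675 probe sets in all. The series holds 2 one-colour Affymetrix arrays, 1 of AGS cells labelled control and 1 of AGS cells labelled galectin-3 silenced by small interfering RNA. Neither the sequence of that RNA, nor the time after transfection, nor what the control cells received is given in the sources used here. The arrays were run to find genes whose expression changes on galectin-3 silencing. Because each group is a single array, a difference cannot be set against the spread of repeat cultures and none was tested, and precision is limited by that number of arrays.

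S100 proteins are small proteins with a pair of EF-hand motifs, most of which bind calcium. They work mainly as dimers, which open on binding calcium and dock onto partner proteins such as annexins, cytoskeletal proteins and p53. Some are also released from cells and act on receptors such as RAGE (gene AGER) and TLR4. In stomach and other epithelia several members are common cytoplasmic proteins, while S100A8, S100A9 and S100A12 are best known from neutrophils and monocytes.

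S100A2 was the one member that stood apart. It was 3.06-fold higher on the silenced array, while the other 8 members measured differed by at most 1.35-fold either way. A gene counts as measured where the probe set that stands for it is above a background floor on at least 1 array, and that floor, set from olfactory receptor probe sets, was 138.4 for the control and 109.5 for the silenced array. S100A8 was under this floor on both arrays. Counting genes with a log2 ratio (silenced over control) of at least 1 in size, which is 2-fold, 1 of 9 measured members was higher, beside 3.31% of all 10514 genes measured, and 0 were lower, beside 3.07% (6.38% in either direction). At 1.5-fold the count was the same, 1 higher and 0 lower, beside 10.6% and 10.4% of all genes (21% in either direction). The median log2 ratio of the 9 members was 0.07, and that of all genes measured was -0.02.

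**Figure D1:**
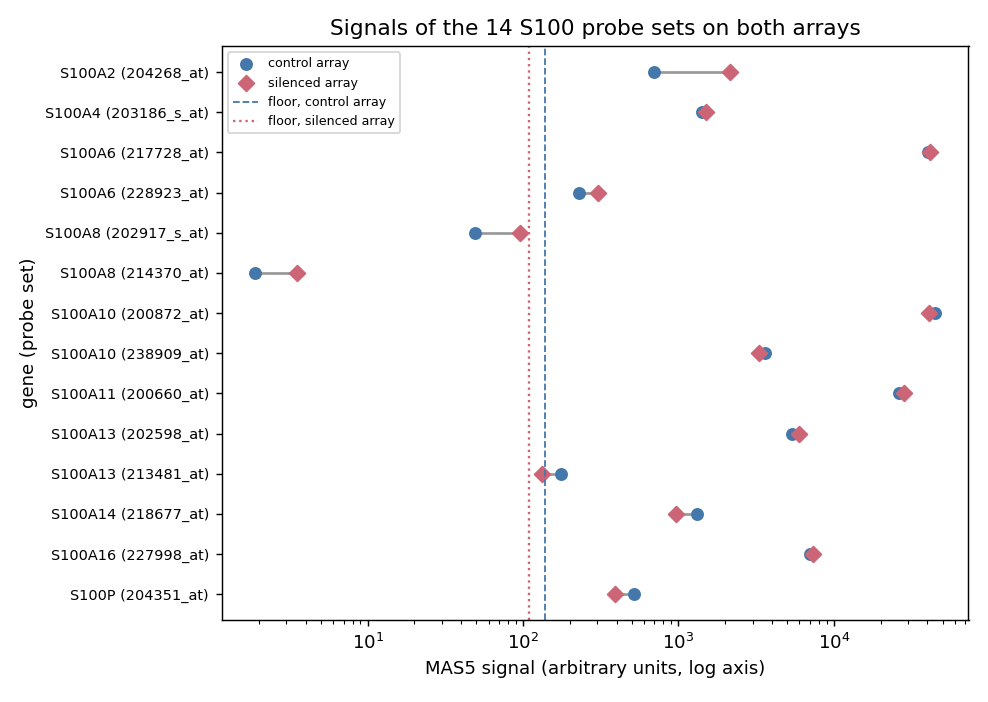
MAS5 signal, on a log axis, of each of the 14 S100 probe sets on the control array (circles) and the silenced array (diamonds), with the floor of each array as a vertical line. S100A2 goes from 697.9 to 2134.6, both S100A8 probe sets lie under the floors, and for most other probe sets the symbols nearly touch.

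LGALS3, which encodes galectin-3, checked the labels. Its signal on the one probe set above the floor went from 20206 in the control to 2699.8, 7.48-fold lower. The other LGALS3 probe set, at 57.8 and 55.6, was under the floor on both arrays. The epithelial origin of the cells was seen in their markers, all 7 of which were above the floor on both arrays. Of these the claudin gene CLDN4 was 2.12-fold and the keratin gene KRT19 1.60-fold higher on the silenced array, and the other 5 had log2 ratios from 0.04 to 0.51. All 7 myeloid markers on the array, the pan-leukocyte gene PTPRC and CD14 among them, were under the floor on both. Of 6 fibroblast markers only the collagen gene COL1A1 was above it, at 816.3 and 1502, which is 1.84-fold higher with a log2 ratio of 0.88, while its other probe sets above the floor gave 0.53 and -0.55. Of 6 markers of squamous keratinocytes only KRT10 was above it. The part of these marker differences in the S100 results was not tested. The squamous markers KRT5, KRT14, KRT1, IVL and DSG3 were under the floor on both arrays.

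S100A2 is a mainly nuclear member of stratified and glandular epithelia that can bind p53. Its single probe set read 697.9 in control cells and 2134.6 in silenced cells, both well clear of the floors. The log2 ratio was 1.61, the rank 74 from the highest among the 10514 genes measured, and 1.24% of all genes differed by as much in either direction. For comparison, the log2 ratios of different probe sets of one gene varied with an SD of 0.32 over 4728 genes, so that the S100A2 ratio was 5.06 times this SD. Since those probe sets read the same RNA, that SD holds no spread between cultures. S100A2 has no further probe set that could repeat the value. In RNA from a whole culture, more cells that make a transcript and more of it per cell cannot be told apart.

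The upstream sequences of S100A2 are shown because it alone passed 2-fold, with S100A4, its near neighbour on the same strand, and S100P, which lies on another chromosome, for contrast. RefSeq (GRCh38.p14) lists 2 starts for S100A2, with the 250 bases before them at chr1:153565845-153566094 and chr1:153563888-153564137, both on the minus strand. Those of S100A4 are at chr1:153545807-153546056 (minus strand), and those of S100P at chr4:6693628-6693877 (plus strand). Each sequence runs 5′ to 3′ on the strand of the gene and ends at the base before the start, and capitals mark a match to the AP-1 site TGANTCA or the TATA box TATAAA.
S100A2, upstream start: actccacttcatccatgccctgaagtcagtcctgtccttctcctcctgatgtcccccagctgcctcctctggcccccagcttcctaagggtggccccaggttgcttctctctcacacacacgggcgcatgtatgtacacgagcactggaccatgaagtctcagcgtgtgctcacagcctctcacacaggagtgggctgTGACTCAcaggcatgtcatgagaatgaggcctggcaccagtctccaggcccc
S100A2, downstream start: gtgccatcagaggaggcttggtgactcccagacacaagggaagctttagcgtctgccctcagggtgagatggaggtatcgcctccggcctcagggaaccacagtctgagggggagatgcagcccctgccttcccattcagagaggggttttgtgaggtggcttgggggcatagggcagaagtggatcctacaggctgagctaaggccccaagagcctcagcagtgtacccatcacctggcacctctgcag
S100A4: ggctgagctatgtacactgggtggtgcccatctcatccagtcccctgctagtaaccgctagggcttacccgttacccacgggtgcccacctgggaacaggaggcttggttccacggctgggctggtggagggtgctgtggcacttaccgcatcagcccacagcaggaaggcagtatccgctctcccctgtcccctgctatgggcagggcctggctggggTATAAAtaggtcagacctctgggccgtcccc
S100P: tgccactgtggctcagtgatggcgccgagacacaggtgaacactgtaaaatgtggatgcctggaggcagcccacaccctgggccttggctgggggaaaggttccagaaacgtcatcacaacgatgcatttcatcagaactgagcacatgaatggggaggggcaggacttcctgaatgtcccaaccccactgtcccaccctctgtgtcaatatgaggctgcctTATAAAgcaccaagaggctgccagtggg

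All 10 members had upstream sequences in the table, 16 entries in all. On both strands 4 motifs were searched, chosen after the sequences were seen. The AP-1 site TGANTCA, bound by FOS and JUN dimers, was found in 1 of the 16, the upstream start of S100A2, where it begins 52 bases before the start. It is present in 6.57% of all 35116 upstream sequences of the same length, so 1 in 16 is near the share of all. The TATA box TATAAA was found in 5 entries of 4 members, at 31 bases before the start in S100A4 and 28 in S100P, and in 10.7% of all upstream sequences. The S100A8 matches, at 126 and 29 bases, are the same box in overlapping entries, so it is counted more than once. Neither S100A2 entry held a TATA box, and nor did those of S100A6, S100A10, S100A11, S100A14 and S100A16. Its absence is therefore not particular to S100A2, although both sequences shown for contrast hold one. The GC box GGGCGG was found in 5 entries, beside 42.6% of all. The core of the interferon-stimulated response element was found in 0 of 16 and in 3.02% of all. None of the 4 motifs holds another, and a match describes these letters only, not binding.

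**Figure D2:**
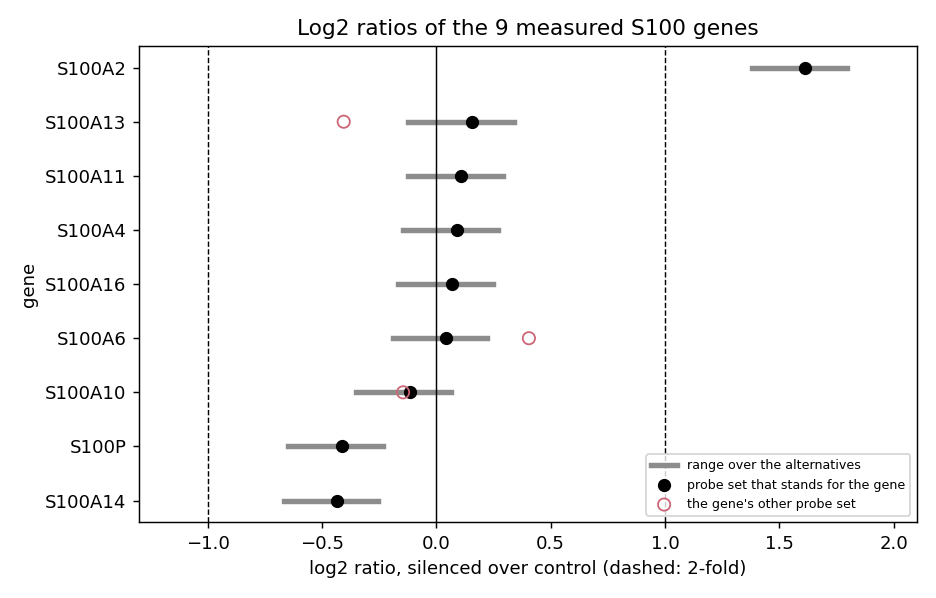
Log2 ratio of silenced over control for the 9 measured S100 genes, ordered by ratio (filled points), with the gene's other probe set where one was above the floor (open circles) and the range over 10 alternative ways of processing (grey bars). The bar of S100A2 lies from 1.38 to 1.79, beyond the dashed 2-fold line, and no other bar reaches that line.

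The brightest members, S100A10, S100A6 and S100A11, hardly differed on their bright probe sets. S100A10, also called p11, joins annexin A2 in a complex at the cell membrane that binds plasminogen, and its own calcium sites are inactive. Its main probe set read 44405 in the control and 40962 after silencing, a log2 ratio of -0.12, and the other read 3629.2 and 3282.2, a log2 ratio of -0.14. S100A11, a partner of annexin A1, read 26296 and 28380, a log2 ratio of 0.11. S100A6, or calcyclin, which binds annexin A11 and the ubiquitin ligase adaptor CACYBP, read 40497 and 41702, a log2 ratio of 0.04. Its other probe set was far dimmer, at 229.5 and 303.9, and had a log2 ratio of 0.41. The bright signals of S100A10 and S100A6 approach the highest on the arrays, 54209 and 52349. The effect of signal saturation on the ratios of the bright probe sets, that of S100A11 included, was not tested. For S100A10 the dimmer probe set gave nearly the same ratio as the bright one, and for S100A6 a higher one, 0.41 beside 0.04. S100A11 has a single probe set.

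S100A4 and S100A16, which lie on either side of S100A2 in the same gene cluster, also showed little difference. S100A4, linked to cell motility through its binding to non-muscle myosin heavy chain, read 1409.1 in the control and 1499.8 after silencing, a log2 ratio of 0.09. S100A16, a broadly expressed member, read 7030.5 and 7363.2, a log2 ratio of 0.07. Of all genes measured, 82.4% differed by at least as much as S100A4 and 87.3% by at least as much as S100A16. S100A13, which takes part in the release of FGF1 and IL1A without a signal peptide, had probe sets that went opposite ways. The bright one read 5381.8 and 6005.1, a log2 ratio of 0.16, and the dim one 175.4 and 132.5, a log2 ratio of -0.40. The ratios of S100A4, S100A6, S100A11, S100A13 and S100A16 turned below 0 when the arrays were scaled on their poly-A controls, and that of S100A10 above 0 when they were scaled on the hybridization controls. Both scalings shift all genes alike, by putting the median of all genes at -0.25 and 0.17. Relative to that median S100A4, S100A6, S100A11 and S100A16 stayed above 0 and S100A10 under 0 with every alternative that gave a ratio. The sizes were 0.04 to 0.25. S100A4, read by a single _s_at probe set, had no ratio without _s_at and _x_at probe sets. S100A13 changed sign when the median of its probe sets was taken.

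S100A14 and S100P were slightly lower on the silenced array under every scaling tried. S100A14, an epithelial member, read 1312 in control cells and 970.9 in silenced cells, 1.35-fold lower with a log2 ratio of -0.43. S100P, a member found in stomach and in several carcinomas that binds ezrin and RAGE, read 516.8 and 387.9, which is 1.33-fold lower with a log2 ratio of -0.41. Differences of this size were common, since 32.7% of all genes measured differed by as much as S100A14 and 34.6% by as much as S100P. Each of these genes has a single probe set.

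S100A8, which with S100A9 forms calprotectin of neutrophils, gave no ratio. Its probe sets read 48.8 and 1.9 in the control and 95.5 and 3.5 after silencing, all under the floors. With a floor taken only from coding olfactory receptor genes, chosen after the data were seen, the brighter probe set was above it on the silenced array alone, where it was at least 1.09-fold higher. Its partner gene S100A9 was also under the reported floor, at 106.4 and 58.6. On the coding floor S100A9 was at least 1.28-fold lower, S100A1 at least 1.11-fold higher and S100A7A at least 1.48-fold higher. Of the 10 other S100 genes, including S100A9 and S100A12, 9 were under the floor on both arrays. The remaining one, S100A7A, a skin member, read 72.6 and 130.3 and had a bound with no direction at the reported floor. All 5 genes on the array for fused S100 proteins of the cornified layer, such as filaggrin (FLG), were under the floor.

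**Figure D3:**
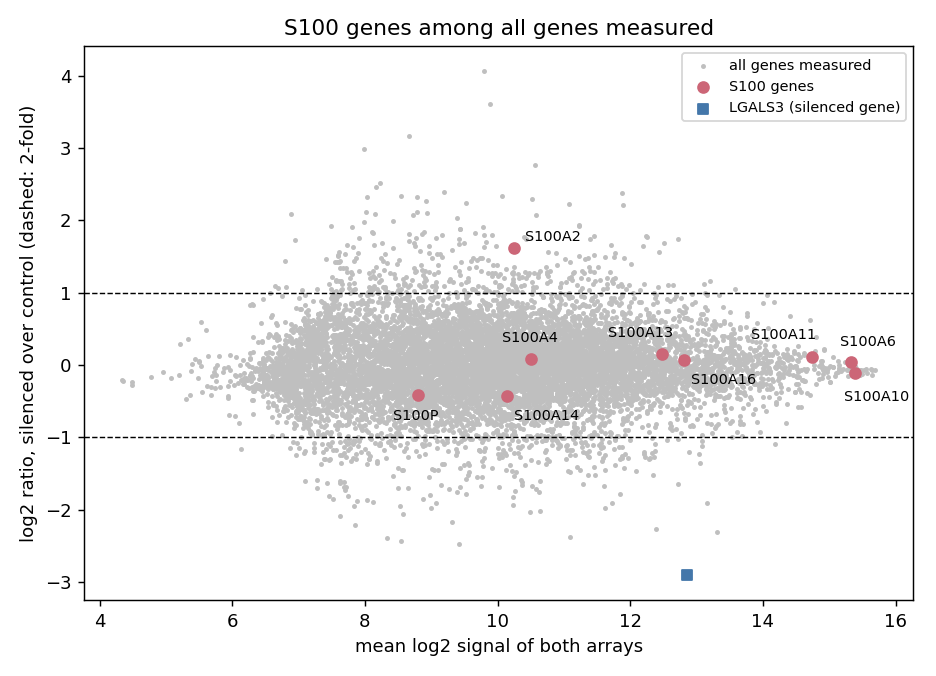
Log2 ratio of silenced over control against mean log2 signal for the 10514 genes measured (grey), with the 9 measured S100 genes and LGALS3 named. S100A2, at a log2 ratio of 1.61, is the only S100 gene outside the dashed 2-fold lines, and LGALS3, at -2.90, is the lowest point.

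Of the 10 members, 9 lie in one cluster on chromosome 1 and S100P lies on chromosome 4. Gene order was taken from RefSeq (GRCh38.p14), to which all 10 members matched by gene identifier. Along the cluster S100A2 lies between S100A3 and S100A16. S100A3 was under the floor on both arrays, at 11.2 and 80.8, and S100A16 had a log2 ratio of 0.07. Beyond these, S100A4 had 0.09 and S100A14 -0.43, so the difference seen for S100A2 was not shared by its measured neighbours. The stretch from S100A10 to S100A1 also holds 47 other protein-coding genes, mostly of the skin barrier, of which 24 were on the array and 4 were measured. The silenced signal of PRR9 was at least 2.03-fold higher, with readings of 126.6, under the floor, and 281.0. SPRR1A, a precursor of the cornified envelope, was at least 1.79-fold higher, with signals of 25.2 and 247.7, although another of its probe sets gave a log2 ratio of 0.39. With a floor 2 times higher the bound of PRR9 fell to a log2 ratio of 0.02 and that of SPRR1A had no direction. The keratinocyte genes SPRR4, at 175.2 and 203, and LCE1E, at 163.8 and 119.7, were not far above the floors. They had log2 ratios of 0.21 and -0.45. Another LCE1E probe set, above the floor on the silenced array alone, gave a bound of 0.05. Of the 5 genes measured just outside the cluster the largest ratio was 0.47, for SNAPIN.

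**Figure D4:**
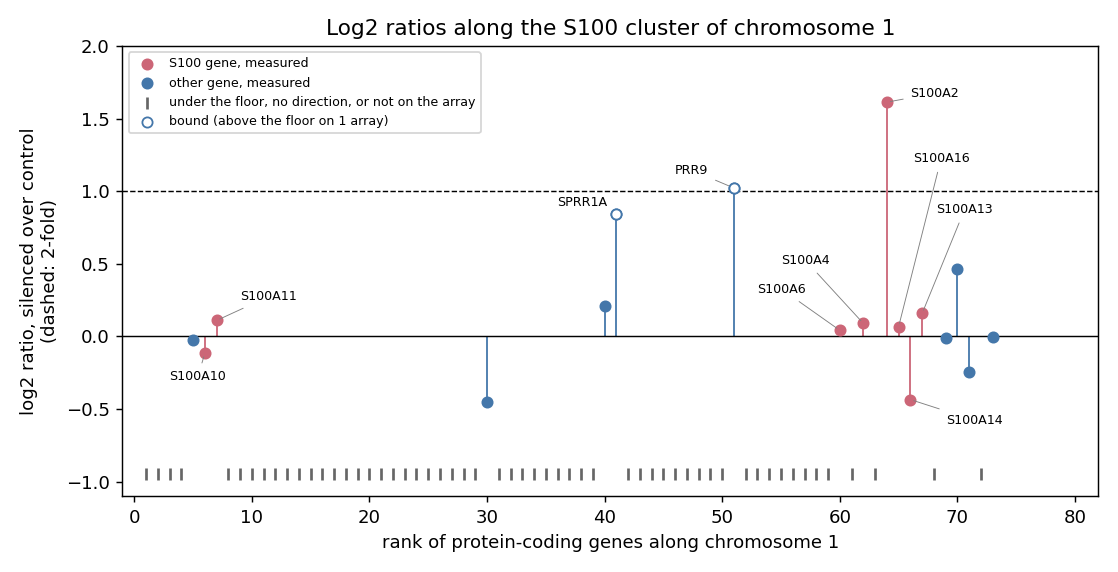
Log2 ratio of silenced over control against the rank of protein-coding genes along the S100 cluster of chromosome 1, with 5 genes on either side. S100A2 is the highest at 1.61, its measured S100 neighbours lie between -0.43 and 0.16, and most other genes of the stretch (ticks) gave no ratio.

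Annexins, calcium-dependent membrane-binding proteins that include partners of several S100 proteins, had log2 ratios from -1.19 to 2.34, beside -0.43 to 1.61 for the S100 members. Of 12 in the list 11 were on the array and 9 were measured, 2 of them past 2-fold upwards and 1 past it downwards, beside 3.31% and 3.07% of all genes. Without _s_at and _x_at probe sets, on which ANXA9 and ANXA6 rest, 0 were past it upwards, and with a floor 2 times higher 0 were past it downwards. ANXA9 was 5.06-fold higher, with signals of 477.9 and 2418.1, and a second probe set had a log2 ratio of 2.28. ANXA6, a membrane-organising annexin, was at least 3.93-fold higher, with a control signal of 118.3 under the floor and a silenced signal of 543.4, and with a floor 2 times higher this bound was a log2 ratio of 0.97, just under 2-fold. ANXA3 was 1.74-fold higher, at 8152.2 and 14172, and ANXA10, a gastric annexin, at least 2.29-fold lower, at 250.6 and 74.0. The list median was 0.34, from 0.08 without _s_at and _x_at probe sets to 0.58 with a floor 2 times higher. Values of 3 annexins that pair with measured S100 members follow, chosen for that pairing after their values were seen. For ANXA2, the partner of S100A10, the 3 bright probe sets read 31263 to 32009 in the control and 33196 to 33573 after silencing, with log2 ratios from 0.05 to 0.09. These are of a kind that can cross-hybridise, and the one other probe set of ANXA2, near the floor at 98.7 and 110.6, gave a bound with no direction, at which ANXA2 stays in the list median. ANXA1, the partner of S100A11, read 546.9 and 660.1, a log2 ratio of 0.27. ANXA11, which binds S100A6, had log2 ratios of 0.58 and -0.16 on different probe sets.

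Intracellular binding partners of S100 proteins showed no 2-fold difference among the 15 measured of 20 on the array. At 1.5-fold 2 were higher and 0 lower, beside 10.6% and 10.4% of all genes, so the count is near that of all genes, and the list median was 0.07. EZR, which encodes the membrane-cytoskeleton linker ezrin bound by S100P, was 1.66-fold higher, at 8983 and 14956, and its 4 other probe sets gave log2 ratios from 0.56 to 0.82. MYH9, the myosin heavy chain bound by S100A4, was 1.51-fold higher, at 1395.8 and 2114.5, on a single _s_at probe set. Over the alternatives EZR ran from 0.50 to 0.92 and MYH9 from 0.37 to 0.78. Both were lowest, and under 1.5-fold, with the poly-A scaling. CACYBP, bound by S100A6, had log2 ratios from -0.45 to -0.06 over 4 probe sets, and AHNAK, a large scaffold bound by S100A10 with annexin A2, had -0.30 and -0.28 on its probe sets above the floor. S100PBP, a nuclear protein that binds S100P, had 0.01 and -0.24.

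Among surface receptors and plasminogen-system genes tied to S100 proteins, 7 of 11 were measured, 2 of them at least 2-fold higher and 0 lower, beside 3.31% and 3.07% of all genes. The count was 1 with a floor 2 times higher, with the poly-A scaling and without _s_at and _x_at probe sets. The median of 0.10 ran from -0.13 with the poly-A scaling to 0.50 without _s_at and _x_at probe sets. PLAUR, the urokinase receptor, was 2.32-fold higher, at 863.4 and 2002.7, with log2 ratios of 1.71 and 2.25 on 2 more probe sets. PLAT, the tissue plasminogen activator, which binds S100A10, was at least 3.10-fold higher, at 118.4, under the floor, and 429.2, or a log2 ratio of at least 0.63 with a floor 2 times higher. Both probe sets of AGER, which encodes RAGE, were under the floor of each array. TLR4, a receptor for S100A8 with S100A9, had log2 ratios from 0.32 to 0.64 over 4 probe sets. BSG, a receptor for S100A9, read 6925.4 and 5884.3, a log2 ratio of -0.24.

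**Figure D5:**
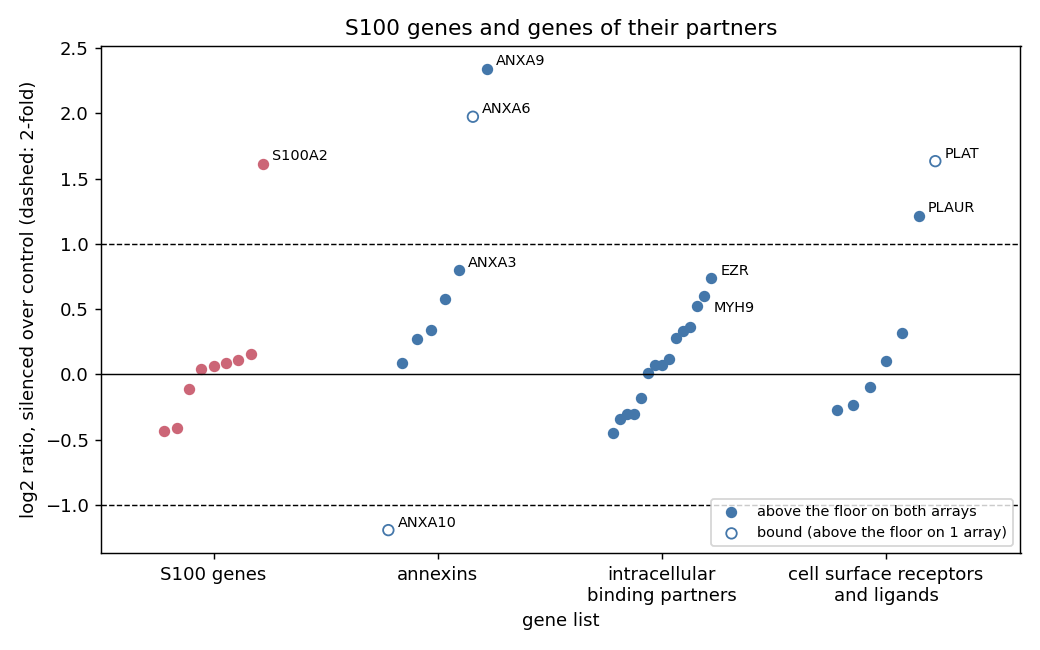
Log2 ratio of silenced over control for the measured S100 genes and 3 lists of partner genes, 1 point a gene, with open circles for bounds and genes past 1.5-fold named; genes with no direction are left out. S100A2, ANXA9, ANXA6, PLAT and PLAUR lie above the upper dashed 2-fold line and ANXA10 below the lower one.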

How the data were processed

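Biotin-labelled cRNA from Trizol-extracted RNA was hybridised to 1 array per group, per the labels' protocols. The authors deposited 1 linear intensity per probe set and array, computed with MAS5 according to the submitters' processing notes. Version, scaling target and filters of that step are not stated in the sources used here. The deposited scaling was kept. MAS5 works on 1 array at a time, its dim signals are noisy, and a common scaling removes any difference in total RNA per cell.

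The floor on each array was the 95th percentile of 135 olfactory receptor probe sets. Signals under it were raised to it, so a ratio with 1 signal under the floor is a bound. A gene was represented by its brightest probe set (mean log2 signal), with the cross-hybridising _x_at kind used only where it had no other. Probe sets with several symbols named no gene. The log2 ratio is silenced minus control. Genes were counted at 2-fold and 1.5-fold, and lists described by counts and median. The calculation was tested on simulated data, with changes placed only in genes well above the floor on both arrays. Neither bounds nor the other settings were tested in this way. Python 3.11.15 was used, with statsmodels 0.14.6 for lowess.

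The members and lists were chosen with earlier results of these data known. Named were all members, LGALS3 and, in each partner or neighbour list, genes past 1.5-fold or the 2 largest ratios. Direct partners of a member, neighbours of S100A2 and a few other genes were named after their values were seen. The motifs were also chosen after the sequences were seen. A planned ranking of the proteins by identity was not made, since no protein sequences were used here. In all 9 other settings of scaling, floor and probe set, and 1 chosen after seeing the data, were run.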

Additional observations from a re-analysis of the deposited data

How the results depend on the processing

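Under all 10 alternatives 1 member, S100A2, passed 2-fold, with a log2 ratio from 1.38 (poly-A controls set equal) to 1.79 (hybridization controls set equal), or 1.55 to 1.64 relative to the median of all genes. All 89 ratios recomputed for the 9 measured members lay within 0.32 of the reported value. S100A8, with no ratio at the reported floor, had one under 3 alternatives, at log2 values from 0.12 to 0.56. S100A14 (-0.67 to -0.25) and S100P (-0.65 to -0.23) stayed under 0. The member median ran from -0.17 to 0.25, and from 0.06 to 0.10 relative to all genes. The poly-A and hybridization controls moved the median of all genes to -0.25 and 0.17. Among partners, a floor 2 times higher lowered ANXA6 to 0.97 and PLAT to 0.63, both then under 2-fold, and left ANXA10 with no ratio. Without _s_at and _x_at probe sets ANXA9, ANXA6, PLAT and MYH9 had no ratio, and neither did the member S100A4. ANXA10 ran from -1.76 to -0.93 and was under 2-fold with the lowess curve. PLAUR ran from 0.98 to 2.25 and was under 2-fold with the poly-A controls set equal, as was CLDN4 at 0.85. S100A8 and the bounds move with the floor. No paired analysis was possible because each group has 1 array.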
